A study of Mus musculus with 3 samples.

Results

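The genes of the proteasome were examined in 3 edited Dmdmdx; Pax7-nGFP myoblast lines, named 66, 67 and 72. Members were the protein-coding mouse genes whose symbol begins with Psm, a letter from a to g and a digit, and 50 of the 35562 annotated genes met this rule. Values are TPM, a level corrected for transcript length and scaled to a total of 1000000 per library, summed over the transcripts of a gene. Each line is 1 sample of a single group, and it was read as the replicate.

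All lines carried the Dmdmdx dystrophin mutation, corrected by CRISPR/Cas9 editing, and Pax7-nGFP, a nuclear green fluorescent reporter driven by the satellite cell gene Pax7. By the study's methods, male mouse embryonic fibroblasts of this genotype were reprogrammed to induced pluripotent stem cells, edited so that the mutated exon is skipped, and injected into mouse blastocysts. The hosts were mainly Pax7-CreERT2; Rosa26-lsl-DTA embryos, in which tamoxifen turns on a toxin in host cells with an active Pax7 promoter, so the host's own satellite cells are lost only where the recombinase has acted. Satellite cells of the resulting chimeras were sorted by nGFP or as CD45-, CD31-, SCA1- and ITGA7+ cells and expanded in culture as myoblasts, the proliferating precursors of muscle fibres. The labels do not say which host, which tamoxifen treatment, which age or which edited clone each line came from. No unedited or wild-type library was analysed here, so the values describe edited cells and not the effect of the edit. The p-values below rest on the 3 lines alone, and no source says how separately these were derived. Where all lines agree in sign, the p-value is fixed by the number of lines, whatever their spread.

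The proteasome is the cell's main machine for degrading proteins tagged with ubiquitin. Its core particle is a barrel of stacked rings: alpha subunits form the outer rings and gate the entrance, and beta subunits form the inner rings, in which beta 1, beta 2 and beta 5 cut proteins. A cap, the regulatory particle, binds the tagged protein, removes the ubiquitin and unfolds it with a ring of ATPases. Interferon-gamma is known to induce replacement catalytic subunits that build the immunoproteasome, a form that favours peptides for display to T cells. In muscle the proteasome is known for breaking down contractile proteins during atrophy.

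The 3 libraries held 66972426 to 73274315 estimated counts. Of the 50 members, 45 (90%) had at least 10 TPM in every line, beside 44.3% of the 17929 protein-coding genes that were detected. The other 5 were the inducible catalytic subunits Psmb8 and Psmb9, the testis subunit Psma8, the thymus subunit Psmb11 and Psme2b, a near copy of an activator gene. The cell type was checked against its markers: Pax7, Myf5, Myod1, Des, Itga7 and Cdh15 all exceeded 10 TPM in every line, with means of 109 TPM for Myf5 to 690 TPM for Myod1. All 5 endothelial markers and 5 of 6 fibroblast markers stayed under 1 TPM in every line. The exception was the collagen gene Col3a1, at 145, 205 and 270 TPM in lines 66, 67 and 72.

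The standard particle, made of 14 core and 17 cap subunits, was expressed throughout at similar levels. Its 31 genes had means over the lines from 146 TPM for Psma2 to 455 TPM for Psma3, a 3.11-fold span, and they made up 90.3%, 91.1% and 91.1% of the members' summed TPM in lines 66, 67 and 72. Together the 50 members took 8453, 8137 and 8515 TPM in lines 66, 67 and 72, or 0.837% ± 0.0203 of all transcripts (SD, n = 3). The SD of the level between the 31 genes was 0.44 on the log2(TPM + 1) scale, beside 1.53 over all 8428 genes whose mean reached 10 TPM.

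**Figure D1:**
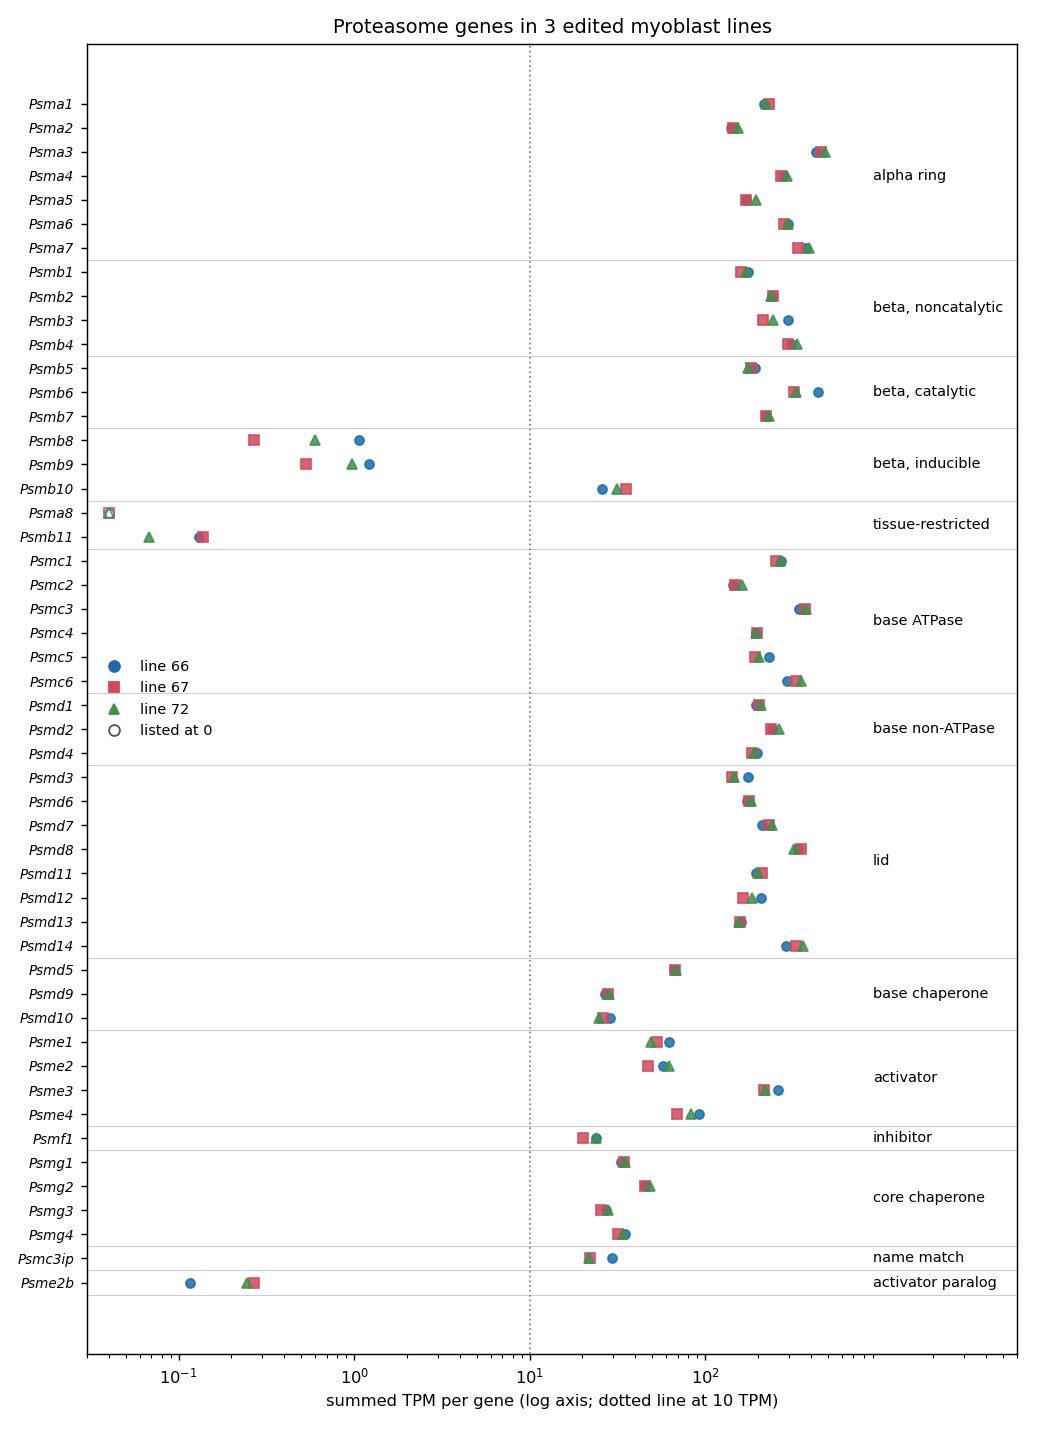
Summed TPM of each proteasome gene (log axis) in the 3 edited myoblast lines, 1 marker per line, grouped by role, with a dotted line at 10 TPM and open markers for a gene listed at 0. The 31 standard subunits lie between 146 and 455 TPM in their means, while Psmb8 and Psmb9 lie near 1 TPM and Psma8 is at 0.

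Among the 7 alpha ring genes, Psma3 was the highest, at 426, 456 and 483 TPM in lines 66, 67 and 72, followed by Psma7 at 375, 339 and 392 TPM. Psma2 was the lowest, at 141, 144 and 153 TPM. The 3 lines of Psma2 did not overlap with those of any of these higher genes, and the ring as a whole kept a median of 8.13 ± 0.058 on the log2(TPM + 1) scale (SD, n = 3). The means of Psma4 (280 TPM ± 11.4) and Psma6 (292 TPM ± 8.32) differed by about their SD (n = 3).

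The noncatalytic beta subunits Psmb1, Psmb2, Psmb3 and Psmb4 complete the inner rings. Their means ran from 168 TPM for Psmb1 to 311 TPM for Psmb4. With protein-coding transcripts alone, Psmb4 was instead the lowest of them, at 104 TPM. Psmb2 was among the steadiest of all members, at 242, 244 and 238 TPM in lines 66, 67 and 72. Psmb3 varied more, at 297, 214 and 243 TPM, with line 66 above the others.

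In the cap, the 6 ATPases of the base, Psmc1 to Psmc6, had means from 151 TPM for Psmc2 to 363 TPM for Psmc3. Psmc4 had the smallest spread of these, at 194, 197 and 194 TPM. The scaffolds of the base, Psmd1 and Psmd2, had means of 202 TPM and 246 TPM, and the ubiquitin receptor Psmd4 had 190 TPM. The 8 lid genes ran from 154 TPM for Psmd3 to 338 TPM for Psmd8. Psmd14, the deubiquitinase that removes the chain from the substrate, was at 288, 331 and 361 TPM in lines 66, 67 and 72.

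The cap genes lay slightly below the core genes in every line. The median of the 17 cap genes minus that of the 14 core genes, was -0.32, -0.23 and -0.25 in lines 66, 67 and 72, read as log2(TPM + 1) (mean -0.26 ± 0.047, SD, n = 3). This is a description with no test, since it is a score over chosen genes. Its sign depends on the correction for length: with CPM, counts scaled to a total of 1000000 with no account of length, the difference was 0.29, and with protein-coding transcripts alone it was -0.39.

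3 further parts of the complex have symbols outside the rule. The ubiquitin receptor Adrm1 had a mean of 138 TPM, the small lid subunit Sem1 151 TPM, and Pomp, the chaperone that matures the core, 215 TPM, so these genes lay in or just below the range of the 31 standard subunits.

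The catalytic subunits come as pairs, in which an inducible subunit takes the place of a constitutive partner: Psmb8 for Psmb5 (beta 5), Psmb9 for Psmb6 (beta 1) and Psmb10 for Psmb7 (beta 2). In these myoblasts the constitutive partner was far higher in each pair and each line. By GENCODE M21 on GRCm38, Psmb8 (ENSMUSG00000024338.15, chr17:34197721-34201454, plus strand) and Psmb9 (ENSMUSG00000096727.3, chr17:34181987-34187764, minus strand) lie in the major histocompatibility complex, whereas Psmb10 (ENSMUSG00000031897.9, chr8:105935735-105938444, minus strand) does not. The partners are Psmb5 (ENSMUSG00000022193.7, chr14:54614119-54618022, minus strand), Psmb6 (ENSMUSG00000018286.6, chr11:70525367-70527858, plus strand) and Psmb7 (ENSMUSG00000026750.6, chr2:38588036-38644087, minus strand).

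For beta 5, Psmb5 was at 193, 183 and 176 TPM in lines 66, 67 and 72. Psmb8 was at 1.06, 0.270 and 0.596 TPM, from 71, 14 and 24 estimated counts with exact Poisson 95% intervals of 55.5 to 89.6, 7.65 to 23.5 and 15.4 to 35.7 counts. Psmb8 thus stood at 0.552%, 0.148% and 0.339% of Psmb5, and its estimated count was highest in line 66. Scaled to TPM, the counting intervals of lines 66 and 72 overlap. These intervals cover counting error only. In bulk RNA a low level in all cells and a higher level in a few cells cannot be told apart, so fewer cells with the gene and less RNA per cell read alike.

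For beta 1, Psmb6 was at 440, 319 and 327 TPM and Psmb9 at 1.21, 0.531 and 0.968 TPM, from 32, 19 and 30 estimated counts. Psmb9 stood at 0.276%, 0.166% and 0.296% of Psmb6. The Poisson intervals of its counts, 21.9 to 45.2, 11.4 to 29.7 and 20.2 to 42.8, overlapped among the 3 lines. In TPM both Psmb8 and Psmb9 were highest in line 66 and lowest in line 67. Counting error leaves the order of Psmb9 unresolved. For Psmb8 the intervals of lines 67 and 72 overlapped too, so only line 66 above line 67 was resolved.

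For beta 2, Psmb7 was at 223, 221 and 230 TPM. Psmb10 was at 25.7, 35.4 and 31.4 TPM in lines 66, 67 and 72, from 649, 878 and 720 estimated counts, so that it was 11.5%, 16.0% and 13.7% of Psmb7 (mean 13.7% ± 2.25, SD, n = 3). Psmb10 was therefore the only inducible subunit above 10 TPM. Its TPM was highest in line 67 and lowest in line 66, the reverse of the order of the Psmb8 and Psmb9 values, which their counts do not fully resolve.

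The mean log2(TPM + 1) difference, inducible minus constitutive, was -6.84 ± 0.32 for Psmb8 and Psmb5, -7.58 ± 0.17 for Psmb9 and Psmb6, and -2.84 ± 0.23 for Psmb10 and Psmb7 (SD, n = 3). It was negative in 3 of 3 lines for each pair. The exact two-sided sign-flip permutation test over lines gave p = 0.25 for each of the 3 pairs (0.25 after Benjamini-Hochberg adjustment), the smallest p that 3 lines can give, so it could not pass 0.05.

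Most of the Psmb10 value came from short transcripts that do not encode the protein. The protein-coding transcript Psmb10-201 (1311 bases) was at 4.21, 7.78 and 5.49 TPM in lines 66, 67 and 72, and the processed transcript Psmb10-203 (426 bases) at 10.4, 19.5 and 14.7 TPM. Counted on protein-coding transcripts alone, Psmb10 was 1.89%, 3.52% and 2.39% of Psmb7 (mean 2.60% ± 0.838, SD, n = 3). The inducible partner thus stayed below the constitutive subunit by either count, at a level that depends strongly on how reads were divided among the transcripts. For Psmb8 and Psmb9 the coding values were 0.239% ± 0.147 and 0.242% ± 0.123 of the partner (SD, n = 3).

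**Figure D2:**
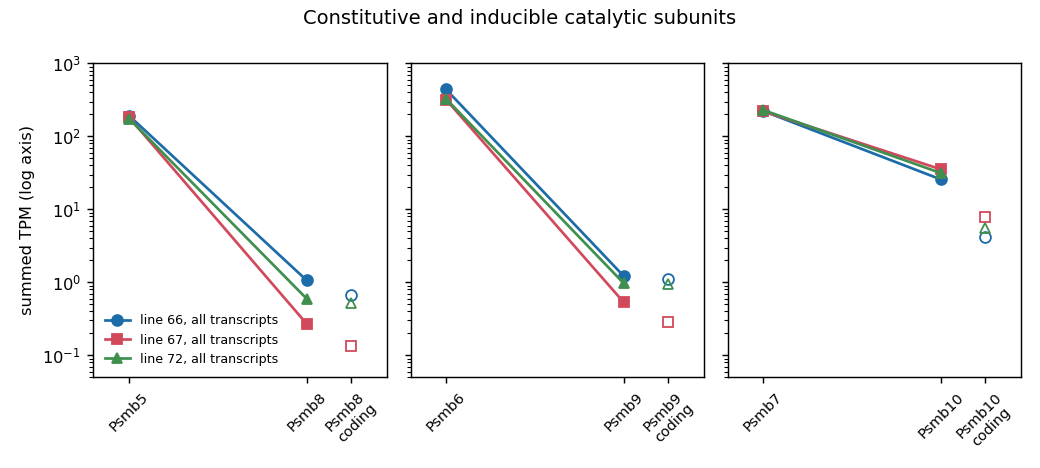
Summed TPM (log axis) of the 3 constitutive catalytic subunits and their inducible partners, with 1 line and filled marker per myoblast line for all transcripts and open markers in the same colours and shapes for protein-coding transcripts alone. The inducible subunit lies below its partner in all 3 lines, by the least for Psmb10, whose coding transcript lies at 4.21 to 7.78 TPM.

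Psmb9 shares its promoter region with Tap1, which encodes part of the transporter that carries peptides into the endoplasmic reticulum. In RefSeq on GRCm38.p6 the genes point away from each other on chromosome 17 and their start sites are 226 bases apart. Tap1 was at 13.2, 10.03 and 11.9 TPM in lines 66, 67 and 72, above Psmb9 in each line. The values of both genes had the same order of lines, but the counts of Psmb9 do not resolve its order. The first exon of one Psmb9 transcript overlaps Tap1 on the opposite strand, and whether the quantification used strand is not given in the sources used here, so reads there cannot be assigned with certainty.

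Of the 21 genes listed for the interferon response and peptide loading, 6 had at least 10 TPM in every line and 8 were under 1 TPM in every line. The high ones included B2m, the invariant chain of class I molecules, at 280, 268 and 302 TPM, and the kinase Jak1 at 59.5, 60.4 and 67.5 TPM. The interferon-gamma receptor genes Ifngr1 and Ifngr2 had means of 18.1 TPM and 17.2 TPM, so the receptor was read in these cells. Typical induced genes were near 0: Cxcl10, a chemokine, had a mean of 0.124 TPM, Gbp2, a guanylate-binding protein, 0.284 TPM, and Isg15, a ubiquitin-like modifier, 0.327 TPM. Irf1, a factor known to activate the inducible subunits, was at 12.7, 7.22 and 10.5 TPM, with line 66 highest and line 67 lowest. Irf1 lies on chromosome 11, where line 66 was above both other lines for 84.7% of the genes whose mean reached 10 TPM. Tapbp, which helps to load peptides on class I molecules, was at 5.93, 6.57 and 8.14 TPM, with line 66 lowest.

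White blood cells express the inducible subunits strongly, so immune markers were read beside them. Of 12 such markers, 10 were under 1 TPM in every line, the macrophage gene Adgre1 had 0 counts in all lines, and Ptprc, the pan-leukocyte gene, had a mean of 0.0254 TPM. Their summed level was 30.3, 5.90 and 16.1 TPM in lines 66, 67 and 72, of which Laptm5, a lysosomal gene of blood cells, gave 25.5, 1.77 and 10.9 TPM. The other marker over 1 TPM, the lysosomal gene Cd68, was at 3.90, 2.92 and 4.23 TPM. In TPM, Laptm5 had the line order of Psmb8 and Psmb9, with line 66 highest and line 67 lowest, an order their counts do not fully resolve. Laptm5 was the only 1 of the 12 markers that was highest in line 66. Ptprc was read from 1, 3 and 7 estimated counts, too few to order the lines. A sort on CD45, the product of Ptprc, removes white blood cells, and the labels do not say which sort each line had. The paper describes the myoblasts used for bulk RNA as purified by FACS, and reports that nearly all cells of such lines expressed GFP. The part of immune cells in the level of Psmb8 and Psmb9 was not tested.

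The remaining core genes of restricted tissues were absent or nearly so. Psma8 had 0 estimated counts in all 3 lines. A count of 0 was read as allowing up to 3 counts per line, a fixed bound and not the exact interval used for the other low counts. Psmb11 had 28.8, 28.0 and 14.2 estimated counts, 0.130, 0.137 and 0.0676 TPM. Psme2b had 3.64, 7.85 and 7.36 estimated counts, and 76.5% of its 31-base words also occur in Psme2, so its counts and those of Psme2 cannot be fully separated.

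The 7 assembly chaperones among the members, which bring subunits together and then leave, were lower than the standard subunits, unlike Pomp above. Psmg1 to Psmg4, which build the core, had means from 26.9 TPM for Psmg3 to 46.3 TPM for Psmg2. Of the chaperones of the base, Psmd5 had 67.3 TPM ± 0.912, Psmd9 27.8 TPM ± 0.834 and Psmd10 26.7 TPM ± 2.05 (SD, n = 3). All 7 lay below the lowest standard subunit in every line.

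Alternative caps and the inhibitor differed among themselves. Psme3, which encodes the nuclear activator PA28 gamma, had the highest level of these, at 259, 215 and 219 TPM in lines 66, 67 and 72. Psme1 and Psme2, the interferon-inducible activator subunits, were at 62.3, 52.9 and 49.0 TPM and at 57.7, 47.2 and 62.4 TPM, so that their lines overlapped and neither was higher throughout. Psme4, which encodes the large activator PA200, was at 92.8, 69.5 and 83.0 TPM. The inhibitor Psmf1 was at 24.0, 20.2 and 23.7 TPM. Unlike Psmb8 and Psmb9, the interferon-inducible Psme1 and Psme2 were above 10 TPM in every line, although only 31.3% of Psme2 lay in protein-coding transcripts.

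How much of each gene was assigned to protein-coding transcripts bears on every level above. Over the 45 members whose mean reached 10 TPM, the median was 94.3% of TPM and 95.4% of estimated counts. Beside this, the median was 91.1% of TPM over all 8303 protein-coding genes at this level. The share of all genes under 50% is not given here. Under 50% of the TPM was coding for 7 members: Psmb4 (33.5%), Psmb10 (18.9%), Psmc6 (36.4%), Psmd13 (39.3%), Psmd14 (49.2%), Psme2 (31.3%) and Psmc3ip (5.56%). By estimated counts, which do not weight short transcripts up, only Psmb10 (47.5%) and Psmc3ip (7.77%) fell under 50%. With coding transcripts alone the 31 standard subunits ran from 62.0 TPM for Psmd13 to 340 TPM for Psma7, a 5.48-fold span.

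**Figure D3:**
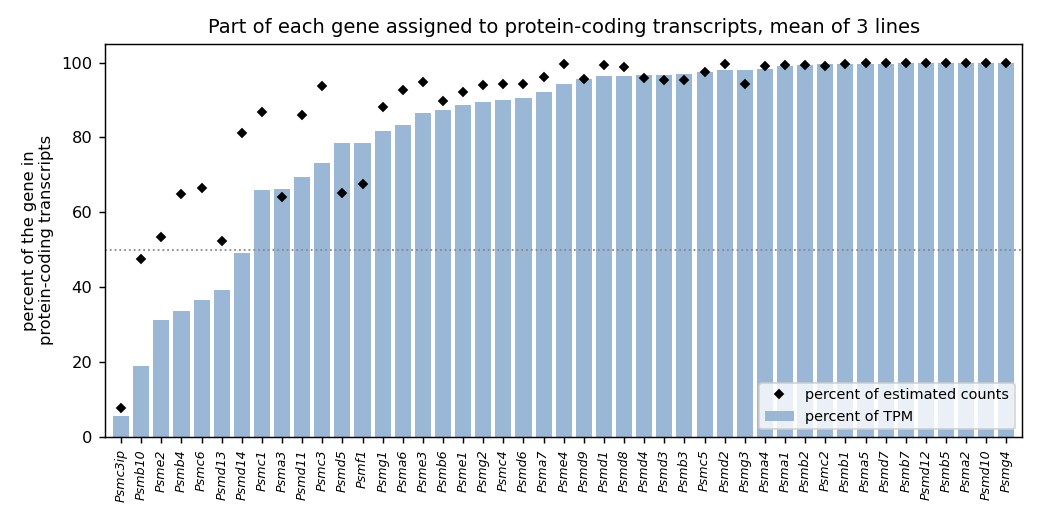
Percent of each gene assigned to protein-coding transcripts, as the mean of 3 lines, for the 45 proteasome genes whose mean reached 10 TPM (bars, percent of TPM; diamonds, percent of estimated counts; dotted line at 50%). The bars of 7 genes end below 50%, whereas the diamonds of 2 genes, Psmc3ip and Psmb10, do.

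Psmc3ip met the symbol rule by name only. It encodes a partner of the recombinases of homologous recombination, not a subunit, and it was at 29.6, 22.1 and 21.9 TPM, of which 5.56% was coding. Without Psmc3ip and Psme2b the members' summed level was 8344 TPM in place of 8368 TPM.

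The proteasome genes varied little between the lines. Of the 45 members whose mean reached 10 TPM, 22 had a highest line less than 10% above the lowest, 36 less than 25% and 45 less than 50%. The median coefficient of variation between lines was 5.07% for these members, 8.74% for all 8428 genes at this level and 7.72% for the 774 genes whose mean lay within the span of the 31 standard subunits.

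A gene was counted as apart in a line when that line was at least 25% above, or at least 20% below, both other lines. In line 66, Psmb6 and Psmc3ip were above (2 of 45 members, beside 4.95% of all genes at this level), and 0 were below (beside 6.59%). In line 67, 0 were above (beside 2.06%) and 0 below (beside 2.61%). In line 72, 0 were above (beside 3.52%) and 0 below (beside 2.06%). Each line is a single sample, so these are counts past a fold, with no test. With library scaling by TMM or by DESeq2 size factors, 4 members were above in line 66, the further ones being Psmb3 and Psme3, beside 6.43% and 6.36% of all genes at this level. Psmb10 was then above in line 67 (1 of 45, beside 2.48% and 2.44%).

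With all transcripts and all lines, the members above in line 66 lay on chromosome 11. This chromosome holds 10 members, of which 9 reached a mean of 10 TPM. Line 66 was above both other lines, by any fold, for 8 of these 9, beside 84.7% of all 699 genes of chromosome 11 at this level. The median log2 ratio of line 66 to the average of lines 67 and 72 was 0.28 for the 9 members and 0.27 for the 699 genes, so the members differed by as much as the genes of that chromosome in general. The ratios ran from 0.44 for Psmb6 and 0.38 for Psmb3 down to -0.08 for Psmd11, the lone member of these 9 that was lowest in line 66. The tenth, Psme2b, was also lowest there, at 0.116 TPM against 0.269 and 0.244 TPM in lines 67 and 72.

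On the chromosomes other than 10 and 11, line 66 was the highest for 9 of 36 members, beside 19.8% of all genes, and the lowest for 15, beside 54% of all genes. The median log2 ratio there was -0.02 for the members and -0.09 for the 7302 genes of all kinds. The largest values were 0.29 for Psme1 and -0.38 for Psmb10, -0.27 for Psmd14 and -0.22 for Psmc6. No member lies on chromosome 10.

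**Figure D4:**
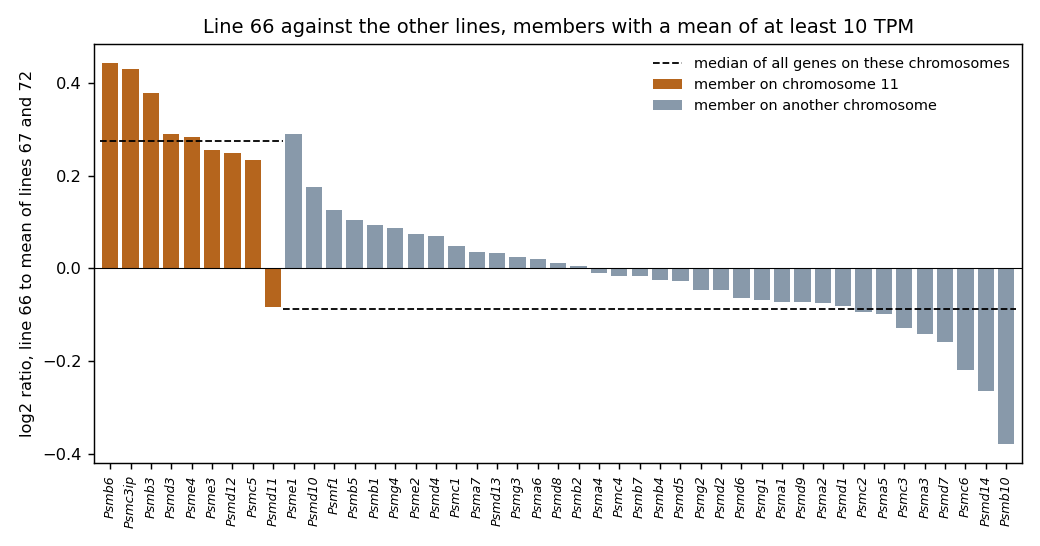
Log2 ratio of line 66 to the average of lines 67 and 72 for each of the 45 proteasome genes whose mean reached 10 TPM, with members on chromosome 11 in brown and on other chromosomes in grey. Dashed lines give the median over all genes of chromosome 11 (0.27) and of the chromosomes other than 10 and 11 (-0.09), and 8 of the 9 bars of chromosome 11 point up.

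Factors that drive proteasome genes were read as well. Nfe2l1 (NRF1), the factor known to raise subunit genes when proteasomes fall short, was at 206, 181 and 197 TPM in lines 66, 67 and 72, the highest of the 10 genes in its list. The protease Ddi2 and the deglycosylase Ngly1, which process NRF1 into its active form, had means of 26.4 TPM and 20.7 TPM. The related Nfe2l2 (NRF2) was at 90.8, 98.9 and 99.4 TPM, and the partner Maff, at 10.7, 8.39 and 8.09 TPM, was the lone gene of the list under 10 TPM in a line.

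NRF1 and NRF2 bind the antioxidant response element, so its core, TGACNNNGC, was searched on both strands in the RefSeq promoter windows, which run from 250 bases before to 50 after a start site. RefSeq windows were given for 42 of the 50 members, 45 windows in all, and 6 (13.3%) held the core, beside 12.4% of all 32851 windows. The share in members was thus that of promoters in general. The matches are shown because they are where that element could be read in these genes, as 30-base stretches on the strand of the gene (GRCm38.p6), with the match in capitals:
Psmb5, chr14:54618023-54618052, minus strand: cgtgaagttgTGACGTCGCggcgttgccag
Psmb6, chr11:70525338-70525367, plus strand: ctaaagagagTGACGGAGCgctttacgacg
Psmc6, chr14:45329587-45329616, plus strand: ccagccagtaGCTAAGTCAggcattgctca
Psmd12, chr11:107479278-107479307, plus strand: tctGCTGTGTCAcatttgcccccctcagac
Psmd9, chr5:123228149-123228178, plus strand: atctagccggTGACCCCGCccacttccaag
Psme4, chr11:30771758-30771787, plus strand: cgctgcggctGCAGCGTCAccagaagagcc

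In Psmb5, Psmb6 and Psmd9 the core reads forward, and in Psmc6, Psmd12 and Psme4 it lies on the reverse strand, where its letters appear reversed and complemented. None of the windows of Psmb8, Psmb9 and Psmb10 held it. The interferon-stimulated response element GAAANNGAAA was in 5 of the 45 windows (11.1%, beside 3.44% of all windows), those of Psmb3, Psmd4, Psmd9, Psme1 and Psmg4, and thus in none of the inducible catalytic subunits. The gamma-activated sequence TTCNNNGAA was in 3 (6.67%, beside 8.30%), among them Psmb8, and CCAAT, the box bound by NF-Y, in 15 (33.3%, beside 37.4%), among them Psmb9. A match describes letters only, and for Psmb8 the annotated GENCODE starts lie upstream of the RefSeq window's start site.

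Genes that feed or assist the proteasome were all expressed. The 14 genes for ubiquitin, its activating enzymes and the shuttles all had at least 10 TPM in every line, and the lowest mean was 23.8 TPM, for the activating enzyme Uba6. The segregase Vcp, which extracts ubiquitinated proteins from complexes, was at 494, 471 and 517 TPM. All 9 associated factors passed 10 TPM too. The deubiquitinase Usp14 had the highest mean, 216 TPM, at 191, 211 and 246 TPM in lines 66, 67 and 72. Txnl1 was close, with a mean of 215 TPM, and was above Usp14 in lines 66 and 67, at 195 and 213 TPM. The COP9 signalosome, a complex built much like the lid, had 9 of 9 genes at or above 10 TPM, with a median of 120 TPM and means from 18.7 TPM for Cops7b to 170 TPM for Cops2, below the median of 225 TPM of the 31 standard proteasome subunits.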

How the data were processed

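Poly-A RNA of 3 myoblast lines was sequenced from stranded libraries. The deposited tables give estimated counts and TPM per transcript, made by the authors. The submitters' processing notes name bcl2fastq 2.20, fastp 0.20, kallisto 0.46.1 and the build GRCm39. Transcripts were matched here to GENCODE M21, on GRCm38, and 1112 of 121798 were left out as unmatched. The deposited TPM and estimated counts were summed per gene. Classes, lists and thresholds were set from subunit roles, and the members and lists were chosen with earlier results of these data known. Every member was named, and other genes only from those lists, some of which are not reported here. Levels are given as TPM or log2(TPM + 1). Catalytic pairs were compared with an exact two-sided sign-flip permutation test and Benjamini-Hochberg adjustment over 3 pairs. Low counts above 0 have exact Poisson 95% intervals, and a count of 0 has a fixed upper bound of 3. Alternatives were a pseudocount of 0.1, CPM, protein-coding transcripts, other filters and folds, leaving out a line, and scaling by edgeR 4.0.16 (TMM) or DESeq2 1.42.0 on estimated counts. Calculations used Python 3.11.15 with pandas 2.3.3 and were tested on simulated data. Promoter windows were from RefSeq.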

Additional observations from a re-analysis of the deposited data

How the results depend on the processing

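No pairing of samples between groups was possible because the 3 lines form a single group, with no second group whose samples theirs could be matched to. The catalytic pairs were compared within each line. The direction of all 3 catalytic pairs, inducible below constitutive, was the same under a pseudocount of 0.1, CPM, protein-coding transcripts alone and each left-out line. CPM gave medians of 7.12 for the core and 7.41 for the cap (log2), a cap minus core difference of 0.29 in place of -0.26, and a sum of 6012 over the members. These follow from the missing correction for length. Protein-coding transcripts alone gave 7.85, 7.46, -0.39 and 6912 TPM, and 1 member (Psme2) below in line 67, beside 2.64% of all genes.

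For members apart in a line, line 66 had 2 above at 25% (4.95% of all genes), 0 at 50% (1.12%) and 4 under TMM or DESeq2 scaling (6.43% and 6.36%). Line 67 had 1 above (Psmb10) under both scalings, in place of 0. Leaving out a line, an alternative chosen after seeing the data that compares the 2 lines left, gave 3 (without line 67, beside 8.35% of all genes) to 5 (without line 72, beside 10%) above and 1 below (14.2% and 10.7%) in line 66. It gave 0 to 1 above (4.86% and 10.7%) and 1 to 5 below (7.32% and 10%) in line 67, and 1 above (7.32% and 14.2%) and 0 to 3 below (4.86% and 8.35%) in line 72. The 5 below in line 67 and above in line 66, without line 72, were Psmb3, Psmb6, Psmd12, Psme4 and Psmc3ip. The median coefficient of variation of the members ran from 4.05% without line 66 to 5.29% without line 67.

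With a pseudocount of 0.1, log2 levels of low genes fell below 0: -0.059 for Psmb9 and for the median of the inducible class, -0.58 for Psmb8, -2.26 for Psmb11, -2.79 for the median of Psma8 and Psmb11, and -1.73 for Psme2b. Of 130 single levels, 112 moved by more than the SD between lines under CPM and 65 with coding transcripts. Leaving out 1 of 3 lines cannot move a mean by that much, so it is no check of these levels. Depth limits Psmb8, Psmb9, Psmb11 and Psme2b, each read from under 100 counts in a line.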
